A study of Mus musculus with 20 samples.

Results

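The genes described here are 52 regulators and targets of 2 fast transcriptional programmes, the negative feedback of NF-κB signalling and the immediate-early response. They were chosen by symbol from a fixed list that left out the AP-1 genes, and all 52 were found among the 14793 genes of the table of normalized counts for mouse knee joints. The rule itself used no measured value, but the list was drawn up with earlier results of these data known. The shares of members given below describe the list and are not independent support for a difference. They comprise the IκB family and its relatives (6 genes), the NF-κB subunits (5 genes), other NF-κB-induced regulators and targets (9 genes), mRNA decay factors (3 genes), immediate-early transcription factors and nuclear proteins (13 genes), signalling enzymes (9 genes) and regulators of growth arrest and stress (7 genes).

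NF-κB dimers are held in the cytoplasm by IκB proteins and are freed when the IκB kinase complex marks these inhibitors for destruction. Freed dimers then switch on the genes of their own inhibitors, among them Nfkbia (IκBα) and Tnfaip3 (A20), so that the response turns itself off. Immediate-early genes such as Egr1 and the Nr4a receptors are transcribed within minutes of a stimulus from factors already present in the cell, they encode short-lived mRNAs, and in the joint both programmes follow inflammatory signals and mechanical load.

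The joints came from male C57BL/6Nci mice, 12 weeks old at the start, whose right knee had its medial meniscus destabilized by surgery (DMM), a model of osteoarthritis, and all 4 groups shared the surgery and the needle insertions in weeks 3 and 5. Control joints (n = 5) received the needle alone, without cells or vehicle. MSC joints (n = 5) received 250000 untreated adipose-derived mesenchymal stromal cells (MSC) at each injection, TLR3-MSC joints (n = 5) the same cells after 2 h with the TLR3 agonist polyinosinic:polycytidylic acid at 10 µg/mL, and STING-MSC joints (n = 5) the same cells after 2 h with the STING agonist 2′3′-cGAMP at 10 µg/mL. The cells were grown from pooled fat of male donor mice, so that they stand for 1 pool, and the joint was taken whole, with cartilage, synovium, capsule and subchondral bone. The study's methods place the collection 8 weeks after surgery and its results 24 h after injection, which were not reconciled here. Each joint is a separate mouse, joint numbers are the replicate numbers of the labels, and the TLR3-MSC and STING-MSC groups are called primed.

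Sequences upstream of the members' start sites are shown for the genes that hold a recognition sequence of the factors behind these programmes. RefSeq promoter windows, from 250 bases before to 50 after a start site in the table's build GRCm38.p6, were found for 43 of the 52 members (58 windows). Only the 250 bases before the start were searched. The stretches printed here were placed in GRCm39 by exact match. The NF-κB sequence, GGG and then any 2 bases and then TTTCC, read on both strands, was in 6 of the 58 windows (10.3%) against 1.41% of all 32851 windows. The cyclic AMP response element TGACGTCA was also in 6 windows (10.3%) against 1.55%, and the CArG box, the binding sequence of serum response factor, in 2 windows (3.45%) against 1.47%. No window was found for Egr1, Egr3, Ier2, Klf10, Myc, Nfkb1, Nfkbiz, Relb and Zfp36l2, so none of these counts covers them. Capitals mark the matched letters, and each stretch runs 5′ to 3′ on the gene's strand. The stretches of 100 bases (Nfkbia, Nfkbid and Btg2) overlap no annotated exon, while every stretch of 30 bases overlaps one. For Nfkb2, Rel, Tnfaip3, Zfp36, Plk2 and Ccnl1 the exons include those of the gene itself. The NF-κB matches in Nfkbia, Rel, Nfkb2 and Tnfaip3 lie in genes of the feedback loop itself.
Nfkbia, chr12:55539433-55539532, minus strand: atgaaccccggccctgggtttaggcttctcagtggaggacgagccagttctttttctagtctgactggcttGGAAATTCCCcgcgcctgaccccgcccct
Rel, chr11:23721041-23721070, minus strand: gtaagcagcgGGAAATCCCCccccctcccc
Tnfaip3, chr10:18891159-18891188, minus strand: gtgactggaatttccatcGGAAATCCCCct
Nfkb2, chr19:46293146-46293175, plus strand: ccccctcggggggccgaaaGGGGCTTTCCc
Nfkb2, chr19:46294134-46294163, plus strand: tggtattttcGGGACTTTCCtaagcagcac
In Dusp5 an NF-κB match and a pair of CArG boxes lie side by side, sharing bases at the join of the first 2 matches, and Zfp36 holds the other CArG box.
Dusp5, chr19:53517485-53517514, plus strand: gGGAAATACCCATATTTGGCCTTATATGGg
Zfp36, chr7:28078692-28078721, minus strand: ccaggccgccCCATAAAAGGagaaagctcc
The cyclic AMP response elements lie in members of several roles, shown here for the atypical IκB gene Nfkbid, the phosphatase gene Dusp1, the kinase gene Plk2, the stress gene Ppp1r15a, the cyclin gene Ccnl1 and the antiproliferative gene Btg2.
Nfkbid, chr7:30121731-30121830, plus strand: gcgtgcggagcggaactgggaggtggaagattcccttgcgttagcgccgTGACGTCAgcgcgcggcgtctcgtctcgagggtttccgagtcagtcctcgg
Dusp1, chr17:26727571-26727600, minus strand: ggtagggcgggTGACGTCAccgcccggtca
Plk2, chr13:110531505-110531534, plus strand: agcgctcgccgTGACGTCAcgaggccccgc
Ppp1r15a, chr7:45175693-45175722, minus strand: gagaccccgcctctccggTGACGTCAgcac
Ccnl1, chr3:65865671-65865700, minus strand: gtgtcggcgtggTGACGTCAgggcggaagc
Btg2, chr1:134007006-134007105, minus strand: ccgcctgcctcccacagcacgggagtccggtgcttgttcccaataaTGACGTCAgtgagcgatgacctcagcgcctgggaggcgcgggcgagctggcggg
A match is a string of letters and was not tested as a binding site.

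Every member was detected in every joint, the lowest value being 45.1 normalized counts for Nr4a3 in STING-MSC joint 5, on totals of 27955496 to 52529972 reads per joint. The authors' normalized counts are reads divided by a size factor per joint, and every fold change below is a difference of group means of log2(normalized count + 1) from limma, with its standard error (SE). Levels between genes were compared per kb of exon. Ppp1r15a, which restarts translation after the stress response, had the highest mean over the 20 joints at 2651 normalized counts per kb, followed by the small GTPase gene Rhob at 2557 and the endothelial transcription factor gene Klf2 at 1959. The ranges of these 3 genes over the joints overlapped. The lowest were the nuclear receptor genes Nr4a3 at 31.7 and Nr4a2 at 33.5, whose ranges also overlapped, with Plk2 next at 72.0. The canonical subunit gene Rela stood at 898 normalized counts per kb with one of the narrowest ranges (765 to 1000.4), while Egr1 ran from 134 to 1236.

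**Figure D1:**
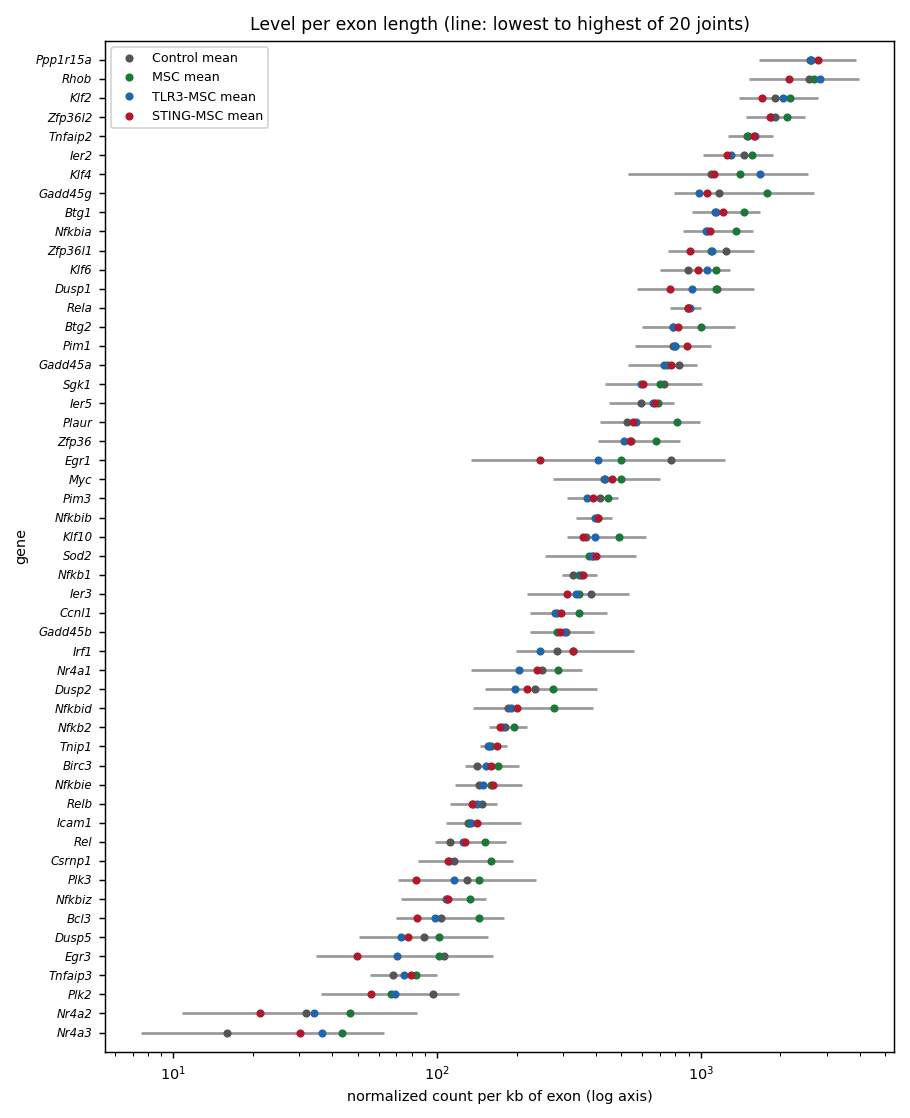
Level of each of the 52 members in normalized counts per kb of exon (log axis), with dots for the means of the 4 groups (n = 5 joints each) and a grey line from the lowest to the highest of the 20 joints. Ppp1r15a and Rhob are at the top and Nr4a2 and Nr4a3 at the bottom, and the line of Egr1 is among the longest.

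Most members had their highest group mean in the joints that received untreated MSC. This held for 31 of the 52 members, against 20.7% of all genes, and 2 had their lowest there. Against control, 40 of 52 members were higher in the MSC joints, with a median log2 fold change of 0.14 (all genes -0.036). This median was 0.079 without MSC joint 3, 0.096 without control joint 5 and 0.040 with the mean log2 level of the neutrophil markers as a covariate. At an unadjusted limma p of at most 0.05, 15 members were higher and 1 was lower, which is 30.8% of the members against 8.55% of all genes tested (5.64% higher and 2.91% lower). The TLR3-MSC joints had 14 members lower than the MSC joints at that threshold and none higher (26.9%, background 3.88% with 1.99% lower), and the STING-MSC joints had 16 lower and none higher (30.8%, background 4.94% with 2.17% lower), with median log2 fold changes over the members of -0.20 and -0.23 (all genes 0.029 and 0.022). These 3 comparisons share the 5 MSC joints. All 9 neutrophil markers were higher with MSC than in control, and of the 16 members at the threshold against control, 6 stayed at it with these markers as a covariate (Bcl3, Plaur, Klf6, Klf10, Nr4a3 and Gadd45g). Of the 14 and 16 members lower in the primed groups than with MSC, 9 and 16 stayed. The share of all genes that stayed with this covariate is not given here. No member passed a false discovery rate (FDR) of 0.05 over all genes in limma in any comparison. The limma background was 0.00676% for MSC against control and 0% in the others. The quasi-likelihood test of edgeR, run on reads recovered from the table, also gave 0 members. It called 15 of all genes for MSC against control and 1 for TLR3-MSC against MSC. DESeq2 gave 1 member for MSC against control (Plaur) and 2 for STING-MSC against MSC (Bcl3 and Plaur). The latter were among 28 of all genes, and DESeq2 called more of all genes than that for MSC against control. The limma background therefore does not apply to the DESeq2 calls. In whole joints, a lower share of cells that hold a transcript and less of it per cell cannot be told apart.

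Against control, few members stood out with primed cells in the fit without covariates. In the TLR3-MSC joints 2 members were higher (Klf6 and Nr4a3) and 1 was lower (Egr1) at an unadjusted limma p of at most 0.05, which is 5.77% of the members (background 3.58%, with 2.68% higher and 0.906% lower). The STING-MSC joints had 6 members lower than control and none higher (11.5%, background 12.2%, with 5.69% of all genes lower), namely Egr1, Egr3, Dusp1, Plk2, Plk3 and Zfp36l1. All 9 neutrophil markers were higher with STING-MSC than in control too, and with them as a covariate Egr1 alone of these 6 stayed at the threshold. That covariate fit called 11 members with STING-MSC and 10 with TLR3-MSC against control, of which 1 and 2 were also called without it. The share of all genes in that fit is not given here. The median log2 fold changes over the members were -0.015 in both comparisons (all genes -0.0068 and 0.0078). DESeq2 gave 1 member at an FDR of 0.05 in the STING-MSC comparison, Egr1, among 85 of all genes. It gave none in the TLR3-MSC comparison, where 3 of all genes were called. Between the STING-MSC and TLR3-MSC joints no member reached an unadjusted limma p of 0.05 (0%, background 2.57%), with 1 each in edgeR and DESeq2, and no member passed the FDR in these tools.

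**Figure D2:**
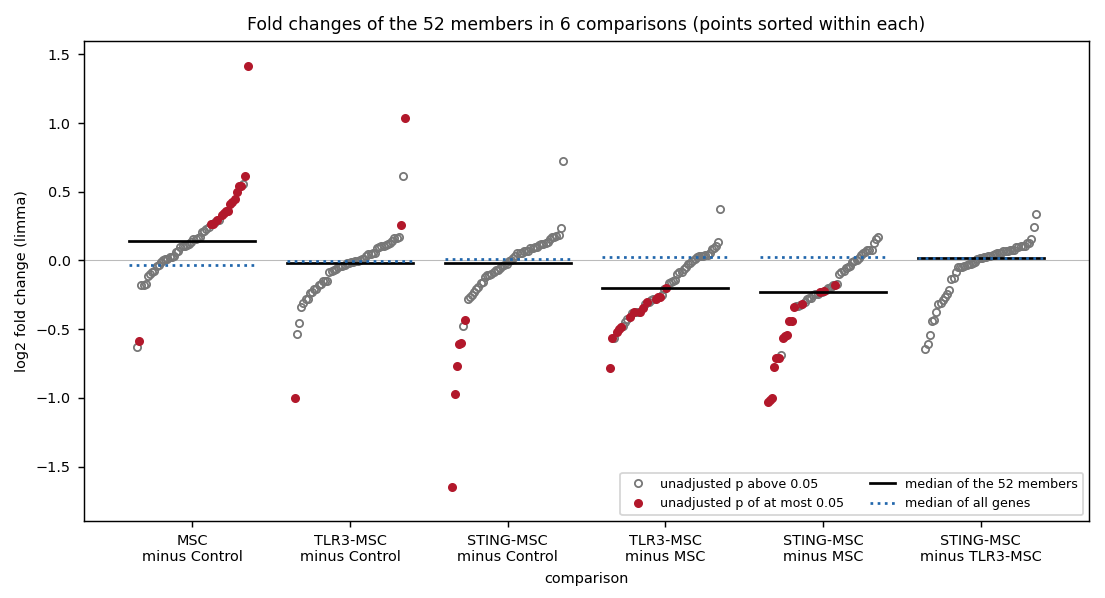
Log2 fold changes (limma) of the 52 members in the 6 comparisons, sorted within each, with filled red points for an unadjusted p of at most 0.05, a black line for the median of the members and a dotted blue line for the median of all genes. The points of MSC minus control lie mostly above 0, those of the primed groups minus MSC mostly below 0, and the lowest point is Egr1 at -1.65 in STING-MSC minus control.

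The high values were not spread evenly over the MSC joints. MSC joint 3 was the highest of the 20 joints for 18 members (34.6%, against 5.65% of all genes), MSC joint 2 for 11 (21.2%, against 6.40%) and MSC joint 4 for 5 (9.62%, against 4.79%). Nfkbid, Btg2, Dusp2 and Dusp5 were highest in MSC joint 3 and Csrnp1 in MSC joint 4, whereas Klf4, Klf10, Plk3 and Rhob were highest in MSC joint 2. Without MSC joint 3 the count of members at an unadjusted p of at most 0.05 went from 16 to 9 against control and from 14 to 7 for TLR3-MSC against MSC. Without MSC joint 4 the same counts were 10 and 9, and without both joints they were 8 and 5. The share of all genes in these fits is not given here, so the counts do not show whether the members fell more than all genes. At the other end, STING-MSC joint 2 was the lowest of the 20 joints for 8 members (15.4%, against 2.28% of all genes). The median SD between joints of a group, on the log2 scale, was 0.29 over the members in the MSC group (0.30 over all genes) and 0.22, 0.20 and 0.21 in the control, TLR3-MSC and STING-MSC groups (0.22, 0.23 and 0.21 over all genes).

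**Figure D3:**
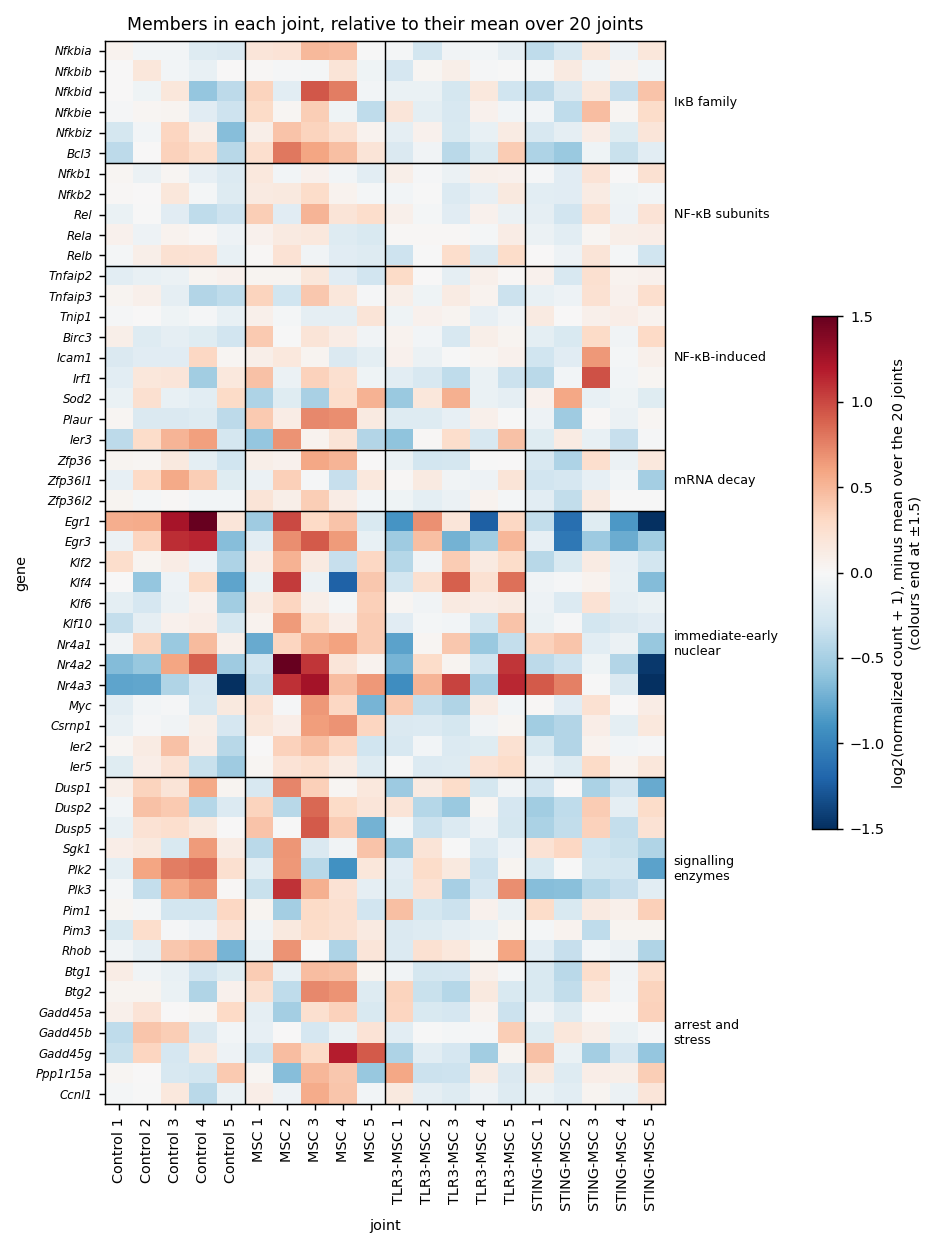
Each member (row, grouped by role) in each of the 20 joints (column), as log2(normalized count + 1) minus the gene's mean over all joints, with colours ending at ±1.5. MSC joints 3 and 4 are both high in Nfkbia, Nfkbid, Plaur, Zfp36, Btg1 and Btg2, MSC joint 2 is high in Egr1, Klf4 and Nr4a2, and the Egr1 row runs from high in control joints 3 and 4 to low in STING-MSC joints 2 and 5.

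Of the IκB family and its relatives, 4 of 6 members were higher with untreated MSC than in control at an unadjusted limma p of at most 0.05 (Nfkbia, Nfkbid, Nfkbiz and Bcl3), against 5.64% of all genes. The other members, Nfkbib and Nfkbie, did not reach it, and with the neutrophil covariate Bcl3 alone did. Nfkbia (chr12:55536195-55539433 in GRCm39), whose product IκBα recaptures NF-κB dimers, had 2251, 2108, 2111, 1903 and 1864 normalized counts in the control joints and 2462, 2507, 3054, 3005 and 2163 in the MSC joints. It had 2124, 1794, 2097, 2120.1 and 1986 in the TLR3-MSC joints and 1663, 1832, 2444, 2056 and 2448 in the STING-MSC joints. Every TLR3-MSC joint was below every MSC joint, as for 4 members (Nfkbia, Irf1, Plaur and Csrnp1) and 0.311% of all genes, while the lowest MSC joint, joint 5, lay within the control range. The means were 2638 ± 381 with MSC and 2047 ± 161 in control (SD, n = 5 each), a log2 fold change of 0.36 ± 0.11 SE with an exact two-sided permutation p of 0.0159. TLR3-MSC against MSC gave -0.37 ± 0.11 SE, with an exact p of 0.00794, the smallest that 5 joints against 5 allow. The difference from control was 0.13 on the log2 scale with the neutrophil covariate and 0.22 without MSC joints 3 and 4, and that of TLR3-MSC from MSC was -0.23 without those joints, none of them at an unadjusted limma p of 0.05.

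Bcl3 (chr7:19542387-19556696), a nuclear IκB relative that binds p50 and p52 dimers, set the STING-MSC joints apart from the MSC joints. Its values were 413, 542, 689, 651 and 404 normalized counts in control and 646, 939.5, 813, 743 and 621 with MSC. They were 467, 521, 408, 462 and 708 in the TLR3-MSC joints and 392, 367, 516, 429.8 and 486 in the STING-MSC joints. All 5 STING-MSC joints lay below all 5 MSC joints, at means of 438 ± 62.6 and 752 ± 129.8 (SD, n = 5 each), a non-overlap that 0.548% of all genes showed in this direction. The log2 fold change was -0.77 ± 0.17 SE, with an exact permutation p of 0.00794, a limma FDR of 0.539 and a DESeq2 FDR of 0.0201. The neutrophil covariate left this value at -0.78. Of the other members of the family, Nfkbid had the largest fold change with MSC at 0.54 ± 0.21 SE against control, with MSC joints 3 and 4 at 920.3 and 819 normalized counts and the other joints of the series between 322 and 651. Nfkbib, which encodes the slowly turned over IκBβ, ranged only from 795 to 1087 normalized counts over the 20 joints and reached an unadjusted p of 0.05 in no comparison.

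Among the NF-κB subunit genes, Rel was the member that was higher with untreated MSC at an unadjusted p of at most 0.05 against control. Rel (chr11:23686847-23720971) encodes c-Rel, the subunit of activated lymphocytes and myeloid cells. It had 924, 985, 879.7, 761 and 799 normalized counts in control and 1283, 881, 1409.8, 1133 and 1187 with MSC. It had 1048, 974, 878, 1035 and 930.2 with TLR3-MSC and 902, 811, 1162, 939.5 and 1145 with STING-MSC. MSC joint 2 lay within the control range and the other 4 MSC joints above it. The log2 fold change against control was 0.43 ± 0.12 SE, with an exact permutation p of 0.0238 and a limma FDR of 0.289, which became 0.0488 without MSC joint 2. With the neutrophil covariate the fold change was 0.18, at an unadjusted limma p of 0.111. Nfkb1, Rela and Relb reached an unadjusted p of 0.05 in no comparison, with log2 fold changes against control between -0.12 and 0.067 in the MSC joints. Nfkb2 was lower with STING-MSC than with MSC at -0.18 ± 0.083 SE, at an unadjusted limma p of 0.048. It did not stay at 0.05 with the skeletal muscle markers as a covariate or without MSC joints 3 and 4.

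Of the other NF-κB-induced genes, Plaur separated the MSC joints from every other group. Plaur (chr7:24161909-24175394) encodes the urokinase receptor of neutrophils and monocytes. Its values were 2439, 2068, 2065, 2099 and 1820.0 normalized counts in control and 3155, 2584, 3962, 3898 and 2635 with MSC. They were 2094, 2098, 2205, 2526 and 2389 with TLR3-MSC and 2274, 1651, 2427, 2256 and 2442 with STING-MSC. The lowest MSC joint was above the highest joint of the other 3 groups. Means were 3247 ± 663 with MSC, 2098 ± 221 in control, 2262 ± 190.1 with TLR3-MSC and 2209.9 ± 324 with STING-MSC (SD, n = 5 each). The log2 fold change of MSC against control was 0.61 ± 0.13 SE, with an exact permutation p of 0.00794, and non-overlap in this direction was found in 0.737% of all genes. The limma FDR was 0.104, the edgeR FDR 0.0545 and the DESeq2 FDR 0.00204, and without MSC joint 2 limma gave 0.0349. Against MSC, the log2 fold change was -0.50 ± 0.13 SE for TLR3-MSC and -0.54 ± 0.13 SE for STING-MSC, each with an exact permutation p of 0.00794.

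Plaur moved with the neutrophil markers from joint to joint. All 9 neutrophil markers were higher with MSC than in control, 6 of them at an unadjusted limma p of at most 0.05, and their summed level ran from 341160 to 598220 normalized counts in control, 484790 to 825050 with MSC, 441760 to 704360 with TLR3-MSC and 487030 to 739960 with STING-MSC, with no marker at 0 in any joint. After subtraction of the group means, Plaur against the mean log2 of these markers over 20 joints gave Pearson's r = 0.79 (permutation p = 0.00075, adjusted 0.0088) and Spearman's rho = 0.75 (permutation p = 0.0012, adjusted 0.014). Without the 2 joints farthest from the median, r was 0.74. With the neutrophil markers as a covariate the log2 fold change of Plaur was 0.32 against control and -0.53 for STING-MSC against MSC, where the marker list had a median log2 fold change of -0.030.

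Tnfaip3 (chr10:18876658-18891406), which encodes the ubiquitin-editing enzyme A20, had 757, 774, 669, 539 and 563 normalized counts in control and 923, 597, 968, 823 and 726 with MSC. It had 782, 699, 796, 762 and 585 with TLR3-MSC and 679, 696, 861, 768 and 870.2 with STING-MSC. All groups overlapped. The log2 fold change of MSC against control was 0.28 ± 0.14 SE, with an exact permutation p of 0.127, and the neutrophil covariate reversed it to -0.0066. Irf1 (chr11:53660841-53669201), a transcription factor gene induced by interferon γ and NF-κB, had 1208, 1521, 1523, 935 and 1502 in control and 1833, 1265, 1714, 1586 and 1292 with MSC. It had 1204, 1144, 1034, 1263 and 1074 with TLR3-MSC and 1018, 1315, 2609, 1313 and 1374 with STING-MSC. All TLR3-MSC joints of Irf1 were below all MSC joints by a small margin, 1263 against 1265 at the closest (-0.41 ± 0.19 SE, exact permutation p of 0.00794, or -0.28 with the neutrophil covariate), and STING-MSC joint 3 stood far above the rest. Icam1, the adhesion receptor for leukocyte integrins, was also highest in STING-MSC joint 3, at 1038 normalized counts against 538, 589.6, 649.7 and 696 in the other STING-MSC joints. In the other groups it had 572, 588, 587, 819 and 676 in control, 704, 736, 682, 568 and 599 with MSC and 691, 624, 659.6, 676 and 694 with TLR3-MSC, and these groups overlapped. The fold change of Icam1 against control in the STING-MSC joints was 0.088 ± 0.14 SE and turned to -0.062 without joint 3. Birc3, the inhibitor of apoptosis cIAP2, was higher with MSC than in control at 0.27 ± 0.11 SE, at an unadjusted p of 0.028 in limma. It did not stay at 0.05 with the neutrophil or the skeletal muscle markers as a covariate, or without MSC joints 3 and 4. Tnip1, Tnfaip2, Sod2 and Ier3 reached an unadjusted p of 0.05 in no comparison.

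**Figure D4:**
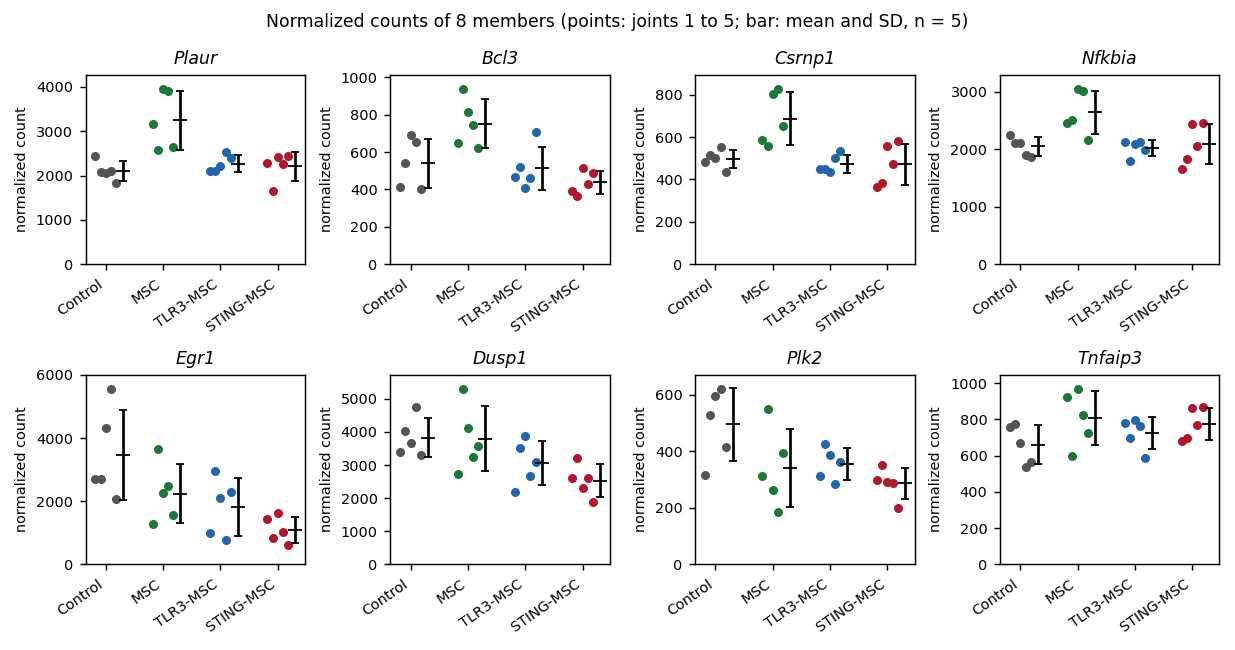
Normalized counts of 8 members in each joint (points in the order of joints 1 to 5 within a group, axes from 0) with mean and SD (n = 5). The MSC points of Plaur lie above all others, the STING-MSC points of Bcl3 lie below the MSC points, and the STING-MSC points of Egr1 and Dusp1 lie below the control points.

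The mRNA decay genes encode zinc finger proteins that bind AU-rich elements of cytokine and immediate-early mRNAs. Zfp36 (tristetraprolin) had 2012, 2005, 2170.3, 1766 and 1587 normalized counts in control and 2075, 2046, 2929, 2779 and 1958 with MSC. It had 1827, 1615, 1627, 1955 and 1961 with TLR3-MSC and 1663, 1421, 2336, 1848 and 2186 with STING-MSC. MSC joints 3 and 4 were the highest of the series and the other 3 MSC joints lay within the control range. The fold change of MSC against control was 0.29 ± 0.14 SE and became 0.095 without those 2 joints and 0.0056 with the neutrophil covariate. Zfp36l1 had 3168, 4214, 5116, 4454 and 3028 in control and 3224, 4411, 3399, 2694 and 3844 with MSC. It had 3472, 3760.1, 3319, 3265 and 3928 with TLR3-MSC and 2822, 2890.3, 3157, 3332 and 2417 with STING-MSC. It was lower with STING-MSC than in control at -0.43 ± 0.14 SE, with an exact permutation p of 0.0476, and this value was -0.22 with the neutrophil covariate, at an unadjusted limma p of 0.158. Zfp36l2 was lower than with MSC in both primed groups, at -0.20 ± 0.086 SE with TLR3-MSC and -0.22 ± 0.086 SE with STING-MSC. Neither value stayed at an unadjusted limma p of 0.05 without MSC joints 3 and 4, nor did the first with the neutrophil covariate.

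Egr1 had the lowest values with STING-MSC. This zinc finger transcription factor gene is a standard readout of serum response factor and MAP kinase signalling. It had 2692, 2695, 4315, 5559 and 2082 normalized counts in control and 1267, 3641, 2258, 2473 and 1575 with MSC. It had 997, 2965, 2091, 788 and 2282 with TLR3-MSC and 1425, 840.3, 1614, 1013 and 604 with STING-MSC. Every STING-MSC joint was below every control joint, a non-overlap found in 1.24% of all genes in this direction, and the TLR3-MSC joints spread from 788 to 2965. Means were 1099.5 ± 416 with STING-MSC and 3469 ± 1433 in control (SD, n = 5 each), a log2 fold change of -1.65 ± 0.38 SE with an exact permutation p of 0.00794. The limma FDR was 0.256 and the DESeq2 FDR 0.0102. TLR3-MSC against control gave -1.0 ± 0.38 SE, with an exact permutation p of 0.0794. STING-MSC against TLR3-MSC gave -0.65 ± 0.38 SE, with an exact permutation p of 0.198, so that a difference between the primed groups was not shown. In the STING-MSC joints the neutrophil markers were higher than in control in 9 of 9 members, 7 at an unadjusted limma p of at most 0.05, and with them as a covariate the Egr1 value was -1.19. The endothelial markers were lower in 6 of 6 members, 4 at that threshold, with sums of 7535 to 13265 normalized counts in control and 6579 to 9268 with STING-MSC and no marker at 0, and their part in the result was not tested.

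Egr3, a relative of Egr1 that follows it in the response, had 325, 435, 749, 767 and 223 normalized counts in control and 309.6, 565, 659, 539 and 319.6 with MSC. It had 239, 475, 212, 241 and 488 with TLR3-MSC and 317, 164, 238, 206 and 242 with STING-MSC. Control joints 3 and 4 were the highest of the series and the STING-MSC joints were among the lowest, with overlap. STING-MSC gave -0.97 ± 0.34 SE against control and -1.0 ± 0.34 SE against MSC, with exact permutation p values of 0.0476 and 0.0159, and the first was -0.85 with the neutrophil covariate, at an unadjusted limma p of 0.0540. Csrnp1 (chr9:119800229-119813725), a nuclear protein gene induced by axin, had 483, 515, 501, 554 and 436 in control and 586, 558, 805, 829 and 652 with MSC. It had 448, 450.4, 433, 503 and 533 with TLR3-MSC and 363, 385, 556, 471 and 582 with STING-MSC. All MSC joints were above all control and all TLR3-MSC joints, while STING-MSC joint 5 overlapped the lowest MSC joints. The log2 fold changes were 0.45 ± 0.14 SE for MSC against control, -0.52 ± 0.14 SE for TLR3-MSC against MSC and -0.55 ± 0.14 SE for STING-MSC against MSC, and the exact permutation p of the first 2 was 0.00794. The value against control was 0.27 with the neutrophil covariate and 0.27 without MSC joints 3 and 4, at unadjusted limma p values of 0.0934 and 0.0799, and the values against MSC were -0.34 and -0.37 without these joints.

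Klf6, a Krüppel-like factor gene of injury and macrophage activation, had 4068, 3766, 4244, 4684 and 3139 normalized counts in control and 4879.6, 5635, 4789.7, 4388 and 5745 with MSC. It had 4589, 4332, 4948, 4847 and 4929 with TLR3-MSC and 4265, 3910.5, 5239, 4094 and 4206 with STING-MSC. It was higher than control with MSC (0.36 ± 0.10 SE, exact permutation p of 0.0159) and with TLR3-MSC (0.26 ± 0.10 SE, exact permutation p of 0.0238), the latter at a limma FDR of 0.9997. Klf10, which is induced by TGF-β, was lower in every STING-MSC joint than in every MSC joint, from 1379 to 1646 against 1718 to 2589 normalized counts (-0.44 ± 0.13 SE). Klf4, a factor of synovial and endothelial cells, had 3896, 2594, 3679.6, 4752 and 2241 in control and 3616, 8043, 3660.4, 1671 and 5122 with MSC. It had 3207, 4584, 7228, 4558 and 6878 with TLR3-MSC and 3730.5, 3825, 4013, 3602 and 2465 with STING-MSC. The MSC joints held both the highest and the lowest value of the series. No comparison of Klf4 reached an unadjusted limma p of 0.05 with all joints and no covariate. With the neutrophil covariate, TLR3-MSC and MSC gave 0.89 and 0.77 against control, at unadjusted limma p values of 0.0072 and 0.035. Without MSC joints 3 and 4 they gave 0.61 and 0.68, at 0.028 and 0.035. STING-MSC against TLR3-MSC was then -0.54, at 0.0497. None of these passed an FDR of 0.05.

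The Nr4a orphan nuclear receptors are induced within the hour by many stimuli. Nr4a3 had 91.0, 91.8, 116, 133 and 48.3 normalized counts in control and 123, 341, 377, 218 and 250.4 with MSC. It had 82.6, 227, 320.4, 112 and 349 with TLR3-MSC and 302, 268, 157, 136 and 45.1 with STING-MSC. Only MSC joint 1 lay within the control range. The fold change of MSC against control, 1.41 ± 0.49 SE on the log2 scale, was the largest of the members in that comparison, with an exact permutation p of 0.0159 and a limma FDR of 0.354. It was 2.11 with the neutrophil covariate and 1.26 without MSC joints 3 and 4, at unadjusted limma p values of 0.00097 and 0.044. Nr4a2 had 153, 163, 366, 453 and 167 in control and 197, 691, 511, 274 and 251 with MSC. It had 148, 293, 249, 197 and 509.7 with TLR3-MSC and 184, 196, 231, 179 and 88.3 with STING-MSC. It was lower with STING-MSC than with MSC (-1.03 ± 0.40 SE, exact permutation p of 0.0159), and its within-group spread reached from 88.3 to 231 in the STING-MSC joints. Nr4a1 had 2455, 3228, 1742, 3546 and 2683 in control and 1515, 3182, 3708, 3869 and 3323 with MSC. It had 1467, 2601, 3378, 1733 and 1994 with TLR3-MSC and 3237, 3410.2, 2287, 2400.1 and 1720.2 with STING-MSC. All groups overlapped, and no comparison reached an unadjusted limma p of 0.05 without covariates. With the skeletal muscle markers as a covariate, MSC against control gave 0.47, at an unadjusted limma p of 0.021. TLR3-MSC and STING-MSC against MSC then gave -0.61 and -0.56, at 0.0030 and 0.0078. With the neutrophil covariate, TLR3-MSC against MSC gave -0.66, at 0.021. Without covariates, Myc, Klf2, Ier2 and Ier5 also reached an unadjusted limma p of 0.05 in no comparison.

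The signalling enzymes were lower in the STING-MSC joints than in control in 8 of 9 members, 3 of them at an unadjusted limma p of at most 0.05 (Dusp1, Plk2 and Plk3), against 5.69% of all genes, and none of the 3 with the neutrophil covariate. Dusp1 (chr17:26724564-26781103), the phosphatase that switches off p38 and JNK, had 3400.1, 4030.3, 3654, 4746 and 3289.7 normalized counts in control and 2715, 5299, 4109, 3253 and 3583 with MSC. It had 2186, 3509, 3870.3, 2670.1 and 3083 with TLR3-MSC and 2616, 3221, 2306, 2620.0 and 1896 with STING-MSC. The highest STING-MSC joint was below the lowest control joint. Means were 2532 ± 486 with STING-MSC and 3824 ± 589 in control (SD, n = 5 each), a log2 fold change of -0.60 ± 0.18 SE with an exact permutation p of 0.00794 and a limma FDR of 0.291. With the neutrophil covariate it was -0.26, while against MSC it was -0.57 without and -0.59 with the covariate. Dusp5, the phosphatase of nuclear ERK whose window holds both NF-κB and CArG sequences, had 189, 238, 245, 227 and 205 in control and 276, 205, 387, 266 and 125 with MSC. It had 201, 163, 178, 194 and 171 with TLR3-MSC and 147, 159, 259.7, 159.9 and 239 with STING-MSC. The MSC joints held both the lowest and the highest value of the series, and no comparison reached an unadjusted limma p of 0.05 without covariates. With the neutrophil covariate, TLR3-MSC and STING-MSC gave -0.47 and -0.57 against control, at unadjusted limma p values of 0.035 and 0.024. With the skeletal muscle markers as a covariate, TLR3-MSC against control gave -0.40, at an unadjusted limma p of 0.045.

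Plk2, a polo-like kinase gene, had 315, 527, 596, 620.1 and 414 normalized counts in control and 314, 549, 262, 185 and 394 with MSC. It had 312, 424, 387, 283 and 361 with TLR3-MSC and 299, 349.8, 292, 289 and 201 with STING-MSC. It was the member that was lower with MSC than in control at an unadjusted p of at most 0.05 (-0.59 ± 0.24 SE), and it was lower with STING-MSC too (-0.77 ± 0.24 SE, exact permutation p of 0.0159). These values were -0.0027 and -0.21 with the neutrophil covariate. Plk2 followed the synovial markers within groups with Pearson's r = 0.89 (permutation p = 4e-05, adjusted 0.0016) and Spearman's rho = 0.84 (permutation p = 8e-05, adjusted 0.0028), and r was 0.81 without MSC joints 2 and 4, the farthest. Of these 6 markers, none at 0 in any joint, 5 were lower with MSC and 5 with STING-MSC than in control (0 and 1 at an unadjusted limma p of at most 0.05), with sums of 229320 to 921460 normalized counts in control, 31736 to 764340 with MSC and 63017 to 262140 with STING-MSC, and their part in the Plk2 values was not tested. Plk3 had 327, 261, 493, 529.7 and 339.5 in control and 265, 709, 485, 389 and 305 with MSC. It had 292, 389, 236, 279.6 and 543 with TLR3-MSC and 214, 217, 249, 264 and 299 with STING-MSC. The STING-MSC joints of Plk3 lay close together, and the fold change was -0.61 ± 0.26 SE against control, or -0.40 with the neutrophil covariate, and -0.71 ± 0.26 SE against MSC. Rhob, a GTPase gene of endosomes and of the stress response, had 5601, 5305, 7744, 8021 and 3587 in control and 5436, 9300.2, 5817, 4239 and 6610.0 with MSC. It had 5065, 6830.4, 6497, 5989.6 and 8797 with TLR3-MSC and 5224, 4589, 5680.1, 5509 and 4279.8 with STING-MSC. STING-MSC against TLR3-MSC gave -0.38 ± 0.21 SE, with an exact permutation p of 0.0397. Pim3 was lower with TLR3-MSC than with MSC at -0.27 ± 0.10 SE, though not at an unadjusted limma p of 0.05 without MSC joints 3 and 4. Sgk1, Pim1 and Dusp2 reached an unadjusted p of 0.05 in no comparison.

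Among the growth arrest and stress genes, Gadd45g (chr13:52000714-52002505), a partner of the kinase MTK1, had 1104, 1738, 1169, 1543 and 1313 normalized counts in control and 1123, 1912, 1696, 3147 and 2628 with MSC. It had 1006, 1242, 1165, 965 and 1423 with TLR3-MSC and 1876, 1295, 975, 1161 and 927 with STING-MSC. MSC joints 4 and 5 were the highest of the series. The fold change was 0.55 ± 0.23 SE for MSC against control, or 0.40 without MSC joints 3 and 4, -0.78 ± 0.23 SE for TLR3-MSC against MSC (exact permutation p of 0.0317) and -0.71 ± 0.23 SE for STING-MSC against MSC (exact permutation p of 0.0714). Btg1 and Ccnl1 were higher with MSC than in control, at 0.34 ± 0.14 SE and 0.27 ± 0.12 SE. They were lower with TLR3-MSC than with MSC, at -0.35 ± 0.14 SE and -0.28 ± 0.12 SE. These values were at an unadjusted limma p of at most 0.05. Against control, neither gene stayed at it with the neutrophil or the skeletal muscle covariate, or without MSC joints 3 and 4. For TLR3-MSC against MSC, neither stayed without those joints, nor did Ccnl1 with the neutrophil covariate. Btg2, Gadd45a, Gadd45b and Ppp1r15a reached an unadjusted p of 0.05 in no comparison.

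At an unadjusted limma p of at most 0.05 in the fit of all joints without covariates, 26 of the 52 members appeared in no comparison. The F test over the 4 groups gave 12 members (background 6.42%), with the smallest limma p for Plaur, Bcl3, Csrnp1, Egr1 and Nfkbia and the smallest FDR at 0.312 (Plaur).

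The genes around the module in the same pathways gave a further comparison. Of 33 genes that act upstream of NF-κB (receptor adaptors, ubiquitin ligases and the IκB kinases), 7 were higher and 1 was lower with MSC than in control at an unadjusted limma p of at most 0.05 (24.2%, background 8.55%), and with STING-MSC against MSC 2 were higher and 2 lower. At the same threshold, of 24 further growth-factor and MAP kinase response genes, 5 were higher and 2 lower with MSC than in control (29.2%, background 8.55%). With STING-MSC, 2 were higher and 7 lower than in control (37.5%, background 12.2%). None was higher and 9 were lower with STING-MSC than with MSC (37.5%, background 4.94%). The 6 measured AP-1 genes, the partners that immediate-early signalling induces beside these members, were all lower with STING-MSC than with MSC (median log2 fold change -0.74). Of these, 5 were at an unadjusted limma p of at most 0.05, against 2.17% of all genes lower. Fos had 797, 1348, 1512, 1132 and 665 normalized counts in control and 665, 1704, 1609.8, 900.0 and 737 with MSC. It had 364, 892, 969, 254 and 729 with TLR3-MSC and 539, 346, 538, 237 and 248 with STING-MSC. The STING-MSC values of Fos all lay below the control values, as those of Egr1 did, at -1.54 ± 0.38 SE against control. Atf3, a stress-induced partner of these factors, had 302, 261, 364, 531 and 213 in control and 377, 1099, 565, 318 and 735 with MSC. It had 206, 388, 524, 243 and 517 with TLR3-MSC and 288, 349, 406, 282 and 376 with STING-MSC, and MSC joint 2 was its highest joint, as for Nr4a2 and Klf4.

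Within the groups, some members followed markers of the cell types that a whole joint contains. The markers of cartilage, bone, synovium, endothelium, macrophages and blood cells were detected in every joint, and their summed levels varied widely within groups, for example from 31736 to 764340 normalized counts for synovial lining and fibroblasts in the MSC joints. Over the 20 joints, with group means subtracted, each member was set against 16 lists (832 relations, 100000 permutations, adjusted with Benjamini-Hochberg, with 1e-05 the smallest p they can give), and the pairs named here were chosen for their size. The epidermis markers, a sign of adhering skin, ran from 19.2 to 21967 with 4 of 5 genes at 0 in at least 1 joint, and no member followed them at an r of 0.7. Of 5 heat shock genes, 3 were higher with MSC than in control at an unadjusted limma p of at most 0.05, with sums of 6765 to 14196 and 6188 to 7716 normalized counts, and their part in the MSC values was not tested. Ppp1r15a followed the erythroid markers with Pearson's r = 0.96 (permutation p = 2e-05, adjusted 0.0012) and Spearman's rho = 0.95 (permutation p = 2e-05, adjusted 0.0011), and r was 0.94 without the 2 farthest joints. The kinase gene Pim1 followed them too, with Pearson's r = 0.95 (permutation p = 1e-05, adjusted 0.0010) and Spearman's rho = 0.94 (permutation p = 1e-05, adjusted 0.0010), and r was 0.94 without the same joints. Sod2, the mitochondrial superoxide dismutase, followed the skeletal muscle markers with Pearson's r = 0.94 (permutation p = 1e-05, adjusted 0.0010) and Spearman's rho = 0.91 (permutation p = 1e-05, adjusted 0.0010), and r was 0.90 without the 2 farthest joints. Btg1 followed the neutrophil markers with Pearson's r = 0.90 (permutation p = 2e-05, adjusted 0.0012) and Spearman's rho = 0.89 (permutation p = 2e-05, adjusted 0.0011), and r was 0.91 without them. Klf4 followed the synovial markers with Pearson's r = 0.90 (permutation p = 7e-05, adjusted 0.0019) and Spearman's rho = 0.81 (permutation p = 0.00015, adjusted 0.0040), and here r was 0.78 without MSC joints 2 and 4, the farthest.

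**Figure D5:**
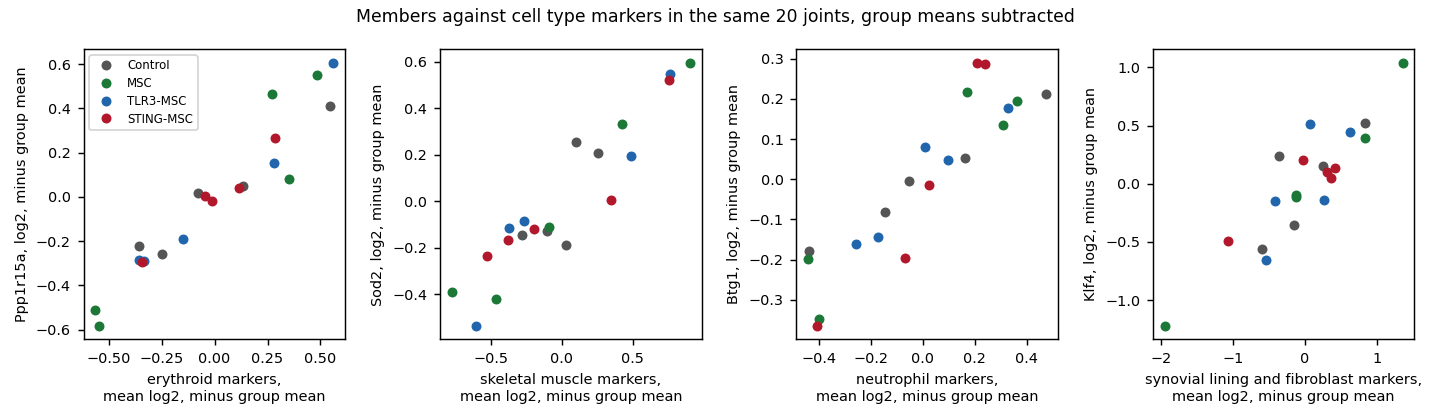
Log2(normalized count + 1) of Ppp1r15a, Sod2, Btg1 and Klf4 (vertical axes) against the mean log2 of the erythroid, skeletal muscle, neutrophil and synovial markers (horizontal axes) in the 20 joints, each minus its group mean and coloured by group. The points of all 4 groups lie along 1 rising band in each panel, with Pearson's r of 0.96, 0.94, 0.90 and 0.90.

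Other feedback and immediate-early genes followed lists too. Rel followed the B cell markers with Pearson's r = 0.88 (permutation p = 8e-05, adjusted 0.0021) and Spearman's rho = 0.92 (permutation p = 1e-05, adjusted 0.0010), with r = 0.88 without the 2 farthest joints. Tnfaip3 ran against the endothelial markers with Pearson's r = -0.88 (permutation p = 1e-05, adjusted 0.0010) and Spearman's rho = -0.86 (permutation p = 4e-05, adjusted 0.0016), with r = -0.82 without the 2 farthest joints. Egr1 followed the 6 AP-1 genes with Pearson's r = 0.85 (permutation p = 1e-05, adjusted 0.0010) and Spearman's rho = 0.82 (permutation p = 0.00011, adjusted 0.0035), with r = 0.83 without the 2 farthest joints. Nr4a2 followed them as well, with Pearson's r = 0.88 (permutation p = 2e-05, adjusted 0.0012) and Spearman's rho = 0.85 (permutation p = 2e-05, adjusted 0.0011), and r was 0.85 without those joints. An r of at least 0.7 was reached by 11 of the 52 members for the growth-factor and MAP kinase list (14.3% of all genes), 9 for the AP-1 list (6.31%), 9 for the neutrophil list (12.3%), 9 for the B cell list (7.44%), 8 for the upstream NF-κB list (5.02%), 7 for the T and NK cell list (10.8%), 5 for the erythroid list (16.2%) and 5 for the synovial list (15.1%). The other lists had 0 to 4 members each, with 2 for the heat shock list (0.162% of all genes) and none for the chondrocyte, macrophage, epidermis and adipocyte lists. An r of -0.7 or below was reached by 7 members for the skeletal muscle list (5.26% of all genes) and 6 for the synovial list (9.42%), and by 0 to 4 for each of the others. As all genes of a joint share its library and its cells, these shares describe the joints, and whether the marker levels account for the group differences was not tested apart from the neutrophil and skeletal muscle covariates.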

How the data were processed

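Bulk RNA-seq (poly-A libraries) of 20 knee joints was analysed, 5 per group, with groups and replicate numbers from the sample labels. The authors filtered the reads, aligned them to GRCm39 with STAR 2.7.3a and counted them per gene with HT-seq on the Ensembl annotation. The deposited values are a normalized count signal, each joint's counts divided by a size factor, in 1 table of 14793 genes. Whether the counting used strand is not given in the sources used here, so genes that overlap others are uncertain. Dividing each joint's values by the worth of 1 read gave whole numbers (98.9% to 99.9% of values per joint within 0.05 reads) and 27955496 to 52529972 recovered reads per joint. These cover counting error only.

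The main test was limma 3.58.1 (R 4.3.3, trend option) on log2(normalized count + 1) over all 14793 genes and 20 joints, since the deposited values are not whole counts, with Benjamini-Hochberg FDR over all genes. A minimum mean of 5 removed 0 genes. Named members were also compared by exact two-sided permutation over all splits of 5 joints against 5. Alternatives were edgeR 4.0.16 and DESeq2 1.42.0 on recovered reads, pseudocounts of 0.5 and 5, a minimum mean of 20, quantile normalization, only the 2 groups compared, omission of each joint, and replicate numbers entered as a block. Neutrophil and skeletal muscle covariates and the joint omission of MSC joints 3 and 4 were added after seeing the data. Limma without covariates, edgeR and DESeq2 were tested on simulated data. The covariate fits and the other alternatives were not. The members, role groups and marker lists were chosen with earlier results of these data known. The members with values in every joint are the 3 with the smallest p in each comparison, the 5 with the smallest F test p, in each group the 3 with the highest ratio of the highest joint to the median, and 8 fixed ones (Nfkbia, Tnfaip3, Egr1, Nr4a1, Icam1, Irf1, Zfp36 and Dusp1), 23 in all. The other members named with a value were chosen after their values were seen. Gene positions are as deposited.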

Additional observations from a re-analysis of the deposited data

Results flagged for a closer look

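In 4 of the 92 groups of 5 joints formed by the 23 named members and the 4 groups, the gap of the outermost joint to its neighbour was over 0.71 of the whole range, the 95% limit of Dixon's test for 5 values, which chance exceeds in about 1 in 20 groups. Plaur was lowest in STING-MSC joint 2 at 1651 normalized counts, with the other STING-MSC joints between 2256 and 2442 (gap ratio 0.798). Nr4a1 was lowest in MSC joint 1 at 1515, with the other MSC joints between 3182 and 3869 (gap ratio 0.792). In STING-MSC joint 5, Klf4 was lowest at 2465 against 3602 to 4013 (gap ratio 0.778) and Nr4a2 was lowest at 88.3 against 179 to 231.5 (gap ratio 0.731).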

How the results depend on the processing

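The 28 fold changes of named members gave 868 values under the alternatives, of which 860 kept their direction and their side of an FDR of 0.05, 6 passed it and 2 turned direction: Tnfaip3 for MSC against control (-0.0066 with the neutrophil covariate) and Icam1 for STING-MSC against control (-0.062 without STING-MSC joint 3, and up to 0.18 with another joint left out). No member passed that FDR in the main fit, so staying on its side is no measure of stability. Values that stayed could shrink, as Plk2 for STING-MSC against control did, from -0.77 to -0.21 with the neutrophil covariate. The counts of members at an unadjusted p of at most 0.05 moved over 1.5-fold in these cases. With the neutrophil covariate there were 10 for TLR3-MSC and 11 for STING-MSC against control, and without MSC joints 3 and 4 there were 8 for MSC against control and 5 for TLR3-MSC against MSC. With only the 2 groups compared there were 6 for TLR3-MSC against control and 3 for STING-MSC against TLR3-MSC, and the latter was 3 with the muscle covariate and 1 with edgeR, with DESeq2 and without MSC joints 3 and 4. The F test gave 19 with edgeR. Shares of all genes at these unadjusted thresholds are not given here for the alternatives. At an FDR of 0.05, DESeq2 gave 1 (MSC against control), 1 (STING-MSC against control) and 2 (STING-MSC against MSC). Of all genes it called 85 for STING-MSC against control, 28 for STING-MSC against MSC and more than either for MSC against control. Quantile normalization gave 1 named member in place of 2 at an exact permutation p of at most 0.05 for TLR3-MSC against control. The causes were not tested.

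Leaving out each joint in turn gave 9 to 18 members for MSC against control, 2 to 5 for TLR3-MSC against control (5 without MSC joint 2), 5 to 8 for STING-MSC against control, 7 to 17 for TLR3-MSC against MSC, 11 to 20 for STING-MSC against MSC, 0 to 4 for STING-MSC against TLR3-MSC (4 without TLR3-MSC joint 1) and 11 to 17 for the F test. At an FDR of 0.05 it gave 0 to 2 for MSC against control (2 without MSC joint 2) and 0 in the others. Same-numbered joints are different mice, and the correlations of their deviations ran from -0.66 to 0.46, so the numbers only name joints. The fit with the replicate number as a block gave 15, 4, 6, 13, 13 and 0 members in the order MSC, TLR3-MSC and STING-MSC against control, TLR3-MSC and STING-MSC against MSC and STING-MSC against TLR3-MSC, and changed no call at the FDR. The lowest value of a member was 45.1 normalized counts, and with 5 joints per group the smallest exact permutation p was 0.00794.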
